A study of Mus musculus with 6 samples.

Results

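The genes described here are 41 genes of glycolysis and of the cellular response to low oxygen, measured by RNA-seq in cultured mouse cardiac fibroblasts. They were found by their symbols in a deposited table of 22063 genes, where they fill 42 rows because Aldoa is listed under 2 identifiers. Of the 41 genes, 39 had enough counts to be tested among the 12862 genes tested in all. The fibroblasts came from mice with floxed Tet3 alleles (Tet3 f/f), were transduced with an adenovirus carrying GFP (GFP, labelled control) or Cre recombinase (CRE, labelled Tet3 knockout), and were all treated with TGF-β, a cytokine that activates fibroblasts. Each group held 3 libraries, and no library without TGF-β or without virus was analysed here. The labels give no age of the animals and do not say whether the 3 libraries of a group came from separate cultures, so p-values measure the spread between these libraries only.

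Glycolysis splits glucose into pyruvate in a series of enzymatic steps after uptake by GLUT transporters, with a net yield of ATP and NADH. Pyruvate is then either reduced to lactate by lactate dehydrogenase or enters mitochondria, where pyruvate dehydrogenase converts it to acetyl-CoA unless pyruvate dehydrogenase kinases switch that enzyme off. The hypoxia-inducible factors (HIF) pair an oxygen-labile alpha subunit with the stable partner ARNT and bind DNA at an RCGTG core, and many genes of glycolysis are known HIF targets. In oxygen, prolyl hydroxylases of the EGLN family mark the alpha subunit for VHL, which directs its degradation. Control by oxygen is therefore largely on the protein, which RNA-seq does not measure. Activated fibroblasts are known for a high use of glycolysis.

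RefSeq promoters (build GRCm38.p6, 250 bases before to 50 after the annotated start) were found for 37 of the 41 genes, 55 promoters in all. Those of Epas1, Slc2a3, Bnip3l and Ndrg1 were not in the table used. The letters ACGTG and GCGTG, which together spell the HIF core, were searched on both strands. The 250 bases before the start are shown for 3 genes whose transcripts fell to between 48.9% and 61.8% of the GFP mean (Ldha, Bnip3 and Pgk1). They are also shown for Pdk1, Pdk4 and Ldhb, which set the contrast within their pairs. Each is written 5′ to 3′ on the strand of its gene, with matches to either motif, or to its reverse complement, in capitals.

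Ldha, lactate dehydrogenase A, chr7:46845554-46845803, plus strand: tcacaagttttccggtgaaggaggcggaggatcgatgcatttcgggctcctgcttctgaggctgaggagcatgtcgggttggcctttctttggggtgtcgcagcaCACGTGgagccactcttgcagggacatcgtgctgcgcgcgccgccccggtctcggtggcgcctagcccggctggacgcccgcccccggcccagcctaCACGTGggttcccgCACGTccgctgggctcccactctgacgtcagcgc

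Ldhb, lactate dehydrogenase B, chr6:142507958-142508207, minus strand: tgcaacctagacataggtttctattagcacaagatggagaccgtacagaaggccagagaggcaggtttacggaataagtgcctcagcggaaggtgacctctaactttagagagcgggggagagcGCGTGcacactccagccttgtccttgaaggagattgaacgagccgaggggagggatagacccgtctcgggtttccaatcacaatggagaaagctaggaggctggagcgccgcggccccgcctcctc

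Pdk1, pyruvate dehydrogenase kinase 1, chr2:71872974-71873223, plus strand: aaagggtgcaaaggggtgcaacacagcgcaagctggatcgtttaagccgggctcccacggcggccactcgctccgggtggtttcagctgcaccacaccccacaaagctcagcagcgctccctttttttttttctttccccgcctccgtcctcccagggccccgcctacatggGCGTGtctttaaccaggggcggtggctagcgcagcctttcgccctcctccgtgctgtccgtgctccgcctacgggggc

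Pdk4, pyruvate dehydrogenase kinase 4, chr6:5496279-5496528, minus strand: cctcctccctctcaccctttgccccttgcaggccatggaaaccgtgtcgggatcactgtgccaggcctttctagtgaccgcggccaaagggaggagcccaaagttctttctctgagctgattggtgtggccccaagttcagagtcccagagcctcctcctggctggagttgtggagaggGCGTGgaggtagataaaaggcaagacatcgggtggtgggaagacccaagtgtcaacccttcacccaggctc

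Bnip3, a mitophagy receptor, chr7:138909507-138909756, minus strand: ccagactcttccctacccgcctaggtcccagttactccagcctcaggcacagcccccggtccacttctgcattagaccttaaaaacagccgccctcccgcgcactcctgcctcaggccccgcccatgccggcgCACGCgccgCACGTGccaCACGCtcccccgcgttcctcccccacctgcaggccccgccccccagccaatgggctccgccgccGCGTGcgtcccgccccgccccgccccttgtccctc

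Pgk1, phosphoglycerate kinase 1, chrX:106186850-106187099, plus strand: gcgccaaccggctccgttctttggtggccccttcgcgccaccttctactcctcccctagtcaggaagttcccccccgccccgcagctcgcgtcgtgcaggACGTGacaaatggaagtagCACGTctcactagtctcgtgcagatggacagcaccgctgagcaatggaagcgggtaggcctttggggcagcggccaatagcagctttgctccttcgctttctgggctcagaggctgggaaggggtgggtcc

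In these stretches Ldha held 5 matches to ACGTG and none to GCGTG, Pgk1 held 2 to ACGTG, and Bnip3 held 2 to ACGTG and 3 to GCGTG. The stretches of Ldhb, Pdk1 and Pdk4 each held 1 match to GCGTG and none to ACGTG. The palindrome CACGTG holds ACGTG on both strands and was counted on each. The Ldha stretch lies before a start inside the longer gene that GENCODE M21 draws. These counts rest on promoters chosen for their matches. The other promoter of Ldha held 0 matches to ACGTG and 2 to GCGTG in its full window, and that of Pdk1 held neither motif. Over the full window of 300 bases, 41 of 55 promoters of the genes described (74.5%) held at least 1 of the motifs, against 61.3% of 13006 promoters of all genes tested and 43.8% of all 32851 promoters in the table. For ACGTG alone the share was 45.5%, against 25.1% of promoters of genes tested, and for GCGTG it was 52.7% against 49.9%. Of the promoters of the described genes that fell, 76.5% held a motif (47.1% ACGTG), against 60.1% (26.3% ACGTG) for all genes that fell. Of the 6 tested genes that neither fell nor rose, all but Eno2 also had a promoter with ACGTG, so this motif was not particular to genes that fell. Of those of the genes that rose, 4 of 6 (66.7%) did, each with GCGTG and none with ACGTG, against 62.5% for all genes that rose. A match is a description of the letters and not a binding site.

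Total counts were between 17002126 and 20343590 per library, so 3 counts correspond to between 0.156 and 0.187 CPM. CPM here are counts scaled to a common library size after TMM normalization, and values are listed for libraries 1, 2 and 3 of each group in that order. Tet3, the targeted gene, had 1044, 965 and 1000 counts in GFP and 642, 649 and 637 counts in CRE, a log2 fold change (CRE minus GFP) of -0.72 ± 0.08 (SE) with an adjusted p of 5.4e-05 (edgeR). Tet3 was lower in every CRE library, and these counts cover the whole gene without separating the floxed exons. At an adjusted p under 0.05 (edgeR), 25.7% of all tested genes fell and 25.5% rose, to be read beside the marker counts that follow. Of 12 fibroblast markers 11 fell, and their summed level was 56690 to 58510 CPM in GFP and 29750 to 32120 CPM in CRE. Of 16 endothelial markers 14 fell, from a sum of 477 to 527 CPM to one of 241 to 274 CPM. Of 10 smooth muscle and pericyte markers, 6 fell and 1 rose, with sums of 1042 to 1184 CPM in GFP and 873 to 890 CPM in CRE. Of 10 macrophage markers 6 were tested and 3 fell, from 59.1 to 66.8 CPM down to 34.9 to 38.2 CPM in sum. All 12 cardiomyocyte markers were under 1 CPM in every library, with Myh6 and Myl3 at 0. In bulk RNA, fewer cells of a type and less RNA per cell cannot be told apart, and the part of these markers in the results below was not tested.

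Transcripts of glycolysis and the hypoxia response were mostly lower in CRE. Of the 39 tested genes, 26 fell (66.7%) and 7 rose (17.9%) at an adjusted p under 0.05, where 25.7% of all tested genes fell and 25.5% rose. In either direction 33 genes were called (84.6%), against 51.2% of all tested genes. The genes were chosen with earlier results of these data known, so these shares are a description and not a test. The median log2 fold change was -0.39, against 0.005 over all tested genes. A change of at least 0.5 on the log2 scale together with an adjusted p under 0.05 was seen for 18 genes (46.2%; 16 lower and 2 higher), against 21.2% of all tested genes. The CRE and GFP libraries did not overlap for 37 of the 39 genes, 29 below and 8 above, and such separation was seen for 59.6% of all tested genes. Together the 41 genes took up 1.14% ± 0.0204 (SD, n = 3) of all counts in GFP and 0.872% ± 0.0298 (SD, n = 3) in CRE. Scaling by library size alone moved the median of all genes to 0.17 and that of the 39 genes to -0.23, with 8 genes higher and 22 lower. Under that scaling the smaller changes moved by over 1.5 times, with Arnt at -0.19, Hk2 at -0.15, Gpi1 at -0.23, Pgam1 at -0.25, Pkm at -0.28, Pfkp at 0.47, Bnip3l at 0.34, Vhl at 0.33 and Gbe1 at 0.31, each still called.

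**Figure D1:**
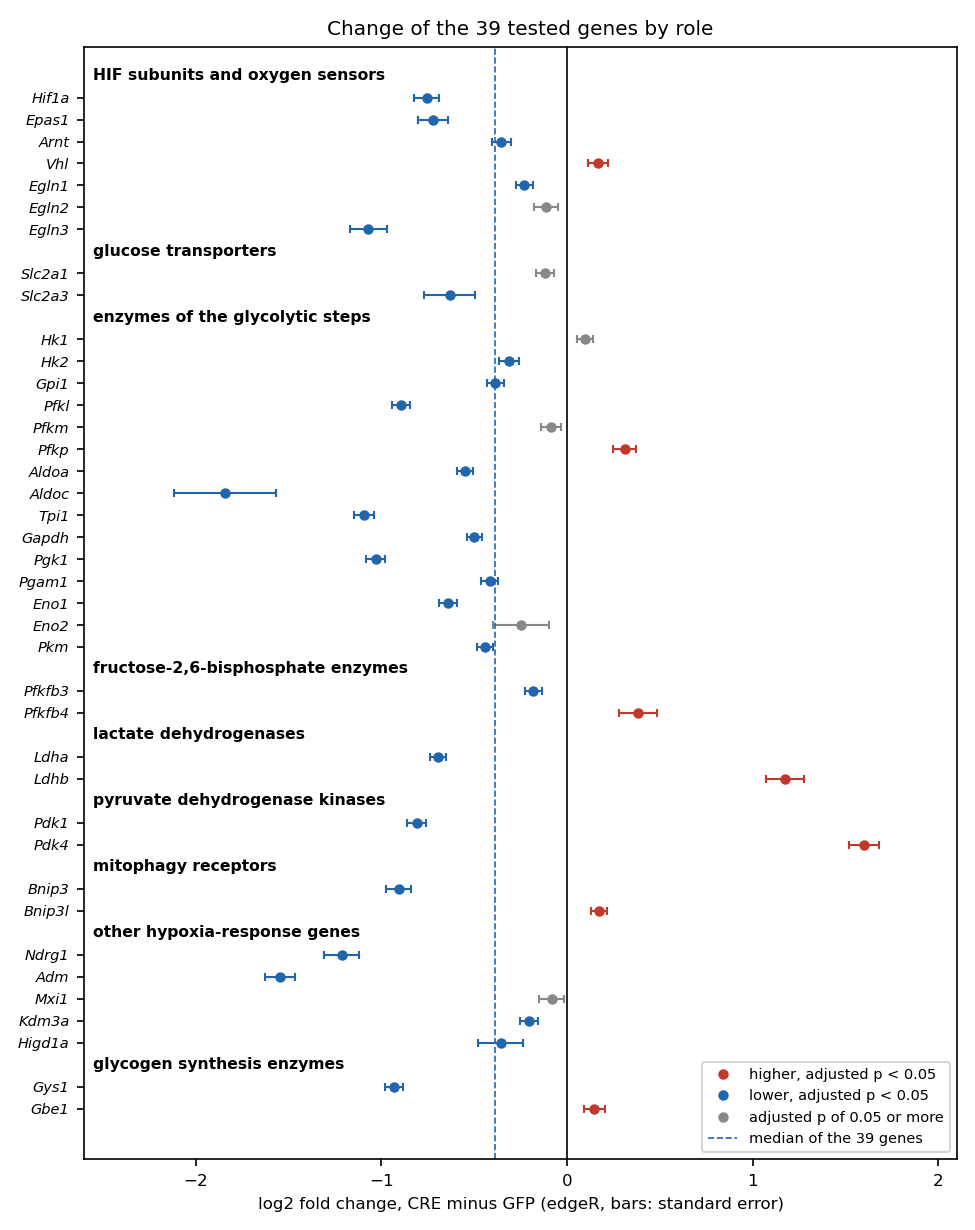
Log2 fold change (CRE minus GFP, edgeR) of the 39 tested genes, grouped by role, with bars for the standard error. Blue points fell (26), red points rose (7) and grey points did not pass an adjusted p of 0.05 (6), and the dashed line is the median of the 39 genes at -0.39.

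The HIF alpha subunits were both lower in CRE. Hif1a (ENSMUSG00000021109, chr12:73901375-73947530, GRCm38), which codes for the main alpha subunit, had 1502, 1649 and 1616 CPM in GFP and 842, 957 and 1025 CPM in CRE. Every CRE library lay below every GFP library, and the mean level in CRE stood at 59.2% of that in GFP (log2 fold change -0.76 ± 0.07, adjusted p = 1.2e-05, edgeR). Epas1, which codes for HIF-2 alpha and is known for high expression in endothelium, had 151, 183 and 173 CPM in GFP and 94.1, 101 and 113 CPM in CRE, again without overlap. Its log2 fold change was -0.72 ± 0.08 (adjusted p = 5.1e-05, edgeR). The endothelial markers fell beside it, as did the fibroblast markers, and a link was not tested. On the length-scaled FPKM values, Hif1a made up 91.9% ± 0.354 (SD, n = 3) of both alpha transcripts in GFP and 91.7% ± 0.218 (SD, n = 3) in CRE, and these shares overlapped (two-sided exact permutation p = 0.6). Arnt, the partner of both, had 119, 126 and 118 CPM in GFP and 92.4, 91.9 and 99.7 CPM in CRE. Its CRE libraries also all lay below, with a smaller log2 fold change of -0.35 ± 0.05 (adjusted p = 2.3e-04, edgeR).

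The oxygen sensors moved unequally. Egln3, a prolyl hydroxylase whose gene is itself a known HIF target, had 16.5, 16.97 and 16.7 CPM in GFP and 8.17, 8.7 and 7.08 CPM in CRE. The groups were far apart, with the CRE mean at 47.7% of the GFP mean (log2 fold change -1.07 ± 0.10, adjusted p = 1.3e-05, edgeR). Egln1, the main prolyl hydroxylase for HIF, changed by -0.23 (adjusted p = 0.0017), a call that was lost with library size alone and on the FPKM scale (adjusted p up to 0.256). Egln2 did not pass the test (log2 fold change -0.11, adjusted p = 0.16), and its sign turned with library size alone and on the FPKM scale. Vhl, the ubiquitin ligase subunit that binds hydroxylated HIF, was higher by 0.17 (adjusted p = 0.026), and lost its call with DESeq2 and when GFP replicate 1 or 3 or CRE replicate 2 or 3 was left out (adjusted p up to 0.124). Egln3 made up 14.1% ± 0.501 (SD, n = 3) of the summed FPKM of the 3 Egln genes in GFP and 8.14% ± 0.820 (SD, n = 3) in CRE.

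Of the glucose transporters, the more abundant one did not pass the test. Slc2a1 (GLUT1), the main basal transporter, had 137, 127 and 124 CPM in GFP and 119, 121 and 118 CPM in CRE. Its CRE libraries lay just below the GFP libraries, with a log2 fold change of -0.12 ± 0.05 (adjusted p = 0.062, edgeR) that turned to 0.04 with library size alone. Slc2a3 (GLUT3), a high-affinity transporter, had 8.21, 6.93 and 6.5 CPM in GFP and 4.62, 4.38 and 4.91 CPM in CRE. These low levels did not overlap between groups (log2 fold change -0.63 ± 0.14, adjusted p = 0.0031, edgeR), and the change was -0.28 on log2(FPKM + 1). By FPKM, Slc2a3 made up 4.79% ± 0.443 (SD, n = 3) of both transporters in GFP and 3.47% ± 0.555 (SD, n = 3) in CRE.

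Among the 15 genes of the glycolytic steps, 11 fell, 1 rose and 3 did not pass the test, with a median log2 fold change of -0.44. Their summed level was 8309 ± 214 CPM in GFP and 5744 ± 149 CPM in CRE (SD, n = 3). The fall was seen along the later steps, from aldolase to pyruvate kinase, in each gene but Eno2, while the earlier steps held genes of both directions.

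**Figure D2:**
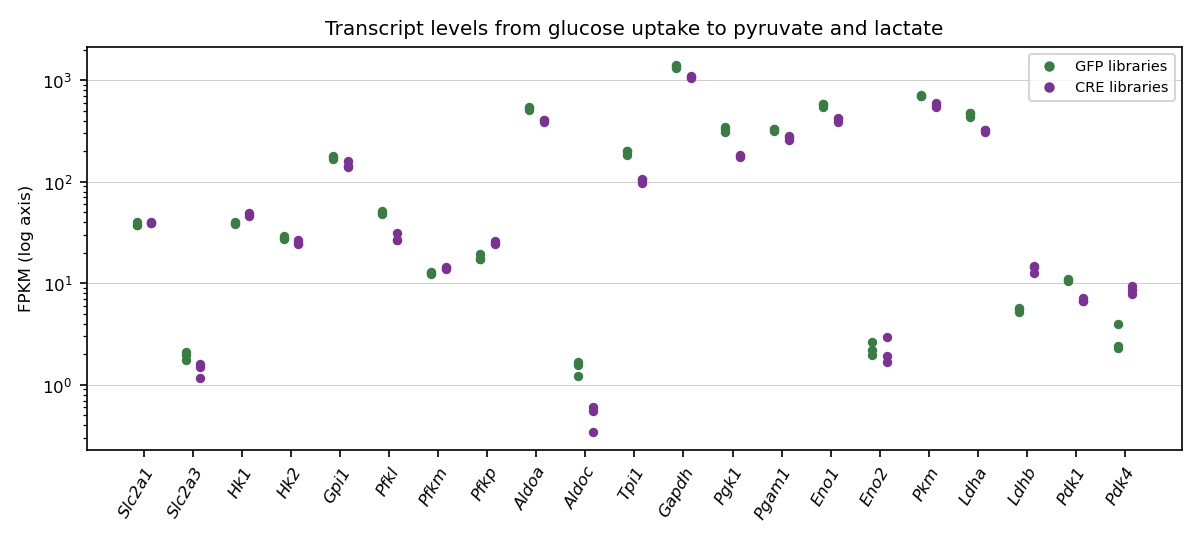
Deposited FPKM values (log axis) of the described genes from glucose uptake to pyruvate and lactate, with Pdk1 and Pdk4, in pathway order, with 1 point per library. CRE points (purple) lie below GFP points (green) from Aldoa to Ldha except at Eno2, and above them at Hk1, Pfkm, Pfkp, Ldhb and Pdk4.

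Hexokinase traps glucose in the cell as glucose 6-phosphate. Hk1, the constitutive isoform, had 156, 158 and 158 CPM in GFP and 161, 172 and 173 CPM in CRE. All 3 CRE libraries lay above the GFP libraries, but the gene did not pass the test (log2 fold change 0.10 ± 0.04, adjusted p = 0.097, edgeR). It was called higher with library size alone (0.26, adjusted p = 7.8e-04), on log2(FPKM + 1) (0.28, adjusted p = 0.0016) and without CRE replicate 1 (0.13, adjusted p = 0.045). Hk2, the inducible isoform and a known HIF target, had 162, 171 and 159.5 CPM in GFP and 140.5, 130.3 and 126 CPM in CRE. All CRE libraries were below, with a log2 fold change of -0.31 ± 0.05 (adjusted p = 7.4e-04, edgeR). The share of Hk2 in the summed hexokinase FPKM was 41.8% ± 1.37 (SD, n = 3) in GFP and 34.7% ± 1.99 (SD, n = 3) in CRE, without overlap. Gpi1, glucose 6-phosphate isomerase, fell by 0.39 on the log2 scale (adjusted p = 6.8e-05).

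Phosphofructokinase catalyses the first committed step, and of its 3 genes Pfkl fell, Pfkp rose and Pfkm did not pass the test. Pfkl, the liver type, had 152, 143 and 152 CPM in GFP and 77.9, 83.2 and 79.6 CPM in CRE. Its mean in CRE stood at 53.9% of that in GFP (log2 fold change -0.89 ± 0.05, adjusted p = 5.1e-07, edgeR), and no library overlapped. Pfkp, the platelet type, rose by 0.31 on the log2 scale (adjusted p = 0.002). Pfkm, the muscle type, stood at -0.09 (adjusted p = 0.2) and turned sign with library size alone (0.07). By FPKM, Pfkl made up 61.8%, 61.6% and 61.4% of the 3 phosphofructokinase transcripts in GFP and 40.9%, 44.2% and 40.2% in CRE. Pfkp went from 22.5% ± 0.706 to 37.3% ± 0.893 and Pfkm from 15.9% ± 0.857 to 20.9% ± 1.28 (SD, n = 3), so Pfkl and Pfkp were close to each other in CRE.

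From aldolase on, the changes were mostly downward. Aldoa, the main aldolase here, had 843, 790.0 and 829 CPM in GFP and 542, 573 and 568 CPM in CRE, all lower in CRE (log2 fold change -0.55 ± 0.04, adjusted p = 5.9e-06, edgeR). Aldoc, an aldolase best known from brain, had only 44, 63 and 69 counts in GFP and 21, 10 and 20 counts in CRE. By edgeR it showed the largest fall of the 39 genes with the widest error (log2 fold change -1.84 ± 0.27, adjusted p = 3.0e-04). On log2(FPKM + 1), which compresses low values, it stood at -0.73, and Adm, Ndrg1, Tpi1 and Pgk1 were among the genes that fell further. It made up under 1% of aldolase FPKM in every library. Tpi1, triosephosphate isomerase, had 340.1, 307 and 339 CPM in GFP and 147, 155 and 159.8 CPM in CRE. Each CRE library was below each GFP library, with a mean of 46.9% of GFP (log2 fold change -1.09 ± 0.05, adjusted p = 4.2e-07, edgeR). Gapdh, glyceraldehyde 3-phosphate dehydrogenase and a gene often used as a reference in qPCR, had 2070, 1966 and 2054 CPM in GFP and 1410, 1439 and 1463 CPM in CRE. It fell by 0.50 on the log2 scale (SE 0.04, adjusted p = 5.4e-06, edgeR), and stood at -0.34 with library size alone.

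Pgk1 (ENSMUSG00000062070, chrX:106187100-106203699), which makes the first ATP of the pathway, had 637, 592 and 667 CPM in GFP and 312, 314 and 302 CPM in CRE. Its CRE libraries spanned 302 to 314 CPM and lay at 48.9% of the GFP mean (log2 fold change -1.03 ± 0.05, adjusted p = 3.9e-07, edgeR). Eno1, the main enolase, had 1254, 1163 and 1240 CPM in GFP and 741, 806 and 794 CPM in CRE, without overlap (log2 fold change -0.64 ± 0.05, adjusted p = 3.8e-06, edgeR). Pgam1, phosphoglycerate mutase, fell by 0.42 (adjusted p = 3.9e-05). Eno2, the neuronal enolase, was measured at a few CPM and overlapped between groups (-0.25, adjusted p = 0.19). Pkm, pyruvate kinase of muscle, whose spliced forms M1 and M2 share this count, had 1688, 1714 and 1741 CPM in GFP and 1214, 1322 and 1245 CPM in CRE. It was lower in every CRE library (log2 fold change -0.44 ± 0.04, adjusted p = 1.9e-05, edgeR).

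The bifunctional enzymes that set the level of fructose 2,6-bisphosphate, an activator of phosphofructokinase, moved apart. Pfkfb3, the form with the strongest kinase activity, had 88.7, 86.6 and 83.1 CPM in GFP and 73.8, 77.3 and 76.6 CPM in CRE. The groups did not overlap, but the fall was small (-0.18 ± 0.05, adjusted p = 0.0079, edgeR) and was close to 0 with library size alone (-0.02). Pfkfb4 rose by 0.38 on the log2 scale (adjusted p = 0.0095). The FPKM ratio of Pfkfb4 to Pfkfb3 was 0.121 ± 0.00867 in GFP and 0.171 ± 0.00762 in CRE (SD, n = 3).

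At the end of the pathway, Ldha and Ldhb changed in opposite directions, and so did the pyruvate dehydrogenase kinase genes Pdk1 and Pdk4. Ldha (ENSMUSG00000063229, chr7:46841475-46855627), whose subunit favours the reduction of pyruvate to lactate, had 793, 730.4 and 781 CPM in GFP and 464, 481 and 478 CPM in CRE. Every CRE library was lower, with a mean of 61.8% of GFP (log2 fold change -0.70 ± 0.05, adjusted p = 1.6e-06, edgeR). Ldhb (ENSMUSG00000030246, chr6:142490249-142507957), whose subunit is abundant in heart muscle, had 7.4, 7.44 and 6.75 CPM in GFP and 14.6, 17 and 17.1 CPM in CRE. It was higher in all CRE libraries, at 225% of the GFP mean (log2 fold change 1.17 ± 0.10, adjusted p = 1.1e-05, edgeR). Ldha stayed the dominant form: by FPKM Ldhb made up 1.18%, 1.27% and 1.09% of both transcripts in GFP and 3.90%, 4.33% and 4.31% in CRE.

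Pdk1 (ENSMUSG00000006494, chr2:71873224-71903858), a known HIF target, had 59.2, 57.5 and 59.8 CPM in GFP and 32.9, 32.8 and 34.95 CPM in CRE. The groups were well separated, with a log2 fold change of -0.81 ± 0.05 (adjusted p = 1.5e-06, edgeR). Pdk4 (ENSMUSG00000019577, chr6:5483351-5496309), a kinase known for induction by fasting and fatty acids, had 8.95, 9.47 and 8.42 CPM in GFP and 26.2, 28.3 and 26.8 CPM in CRE. This was the largest rise of the 39 genes, to 303% of the GFP mean (log2 fold change 1.60 ± 0.08, adjusted p = 4.2e-07, edgeR). By FPKM, Pdk4 made up 18.4%, 27.6% and 17.3% of the sum of Pdk1 and Pdk4 in GFP and 54.2%, 56.2% and 56.6% in CRE. The more abundant of this pair therefore differed between the groups. The share in GFP library 2 came from an FPKM of 4.001 for Pdk4, against 2.42 and 2.29 in the other GFP libraries, while its CPM there (9.47) was close to theirs. The sum of Pdk1 and Pdk4 went in opposite directions on the 2 scales. It was 67.8 ± 0.653 CPM in GFP and 60.7 ± 1.37 CPM in CRE (SD, n = 3). In FPKM it was 13.6 ± 0.751 in GFP and 15.5 ± 0.928 in CRE (SD, n = 3), without overlap, so no direction is given for it. Pdk3, a kinase gene outside the 41, was above both, at 20.57 ± 1.83 FPKM in GFP and 18.4 ± 2.03 FPKM in CRE (SD, n = 3). Its FPKM overlapped between groups, while its counts fell by 0.32 on the log2 scale (adjusted p = 0.011, edgeR). Pdk2 did not pass the test (-0.18, adjusted p = 0.14, edgeR).

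**Figure D3:**
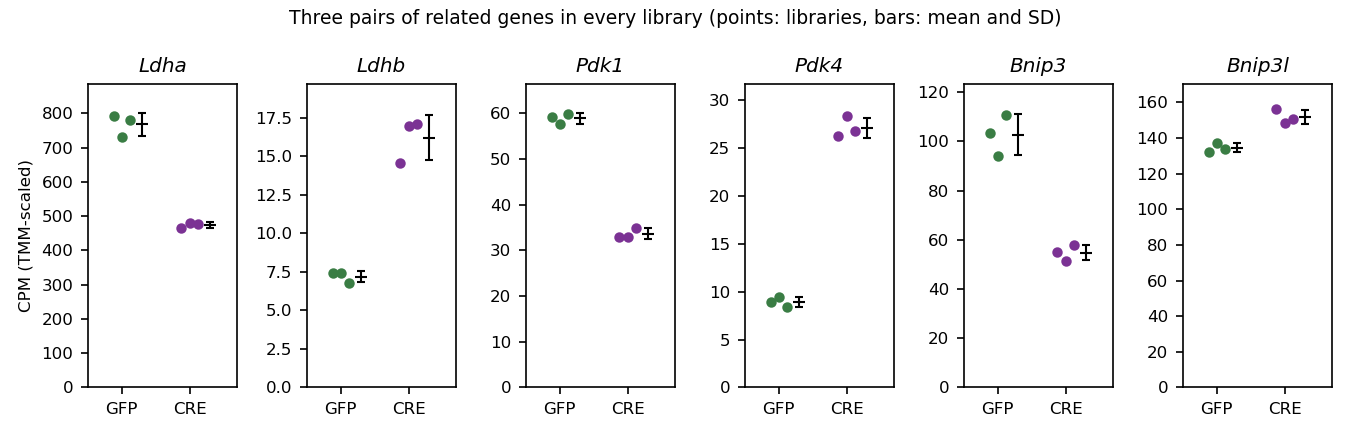
CPM after TMM scaling in every library (points) with mean and SD (black), for the lactate dehydrogenase, pyruvate dehydrogenase kinase and BNIP3 pairs, each axis starting at 0. Ldha, Pdk1 and Bnip3 were lower in all 3 CRE libraries and Ldhb, Pdk4 and Bnip3l were higher in all 3.

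The mitophagy receptors also moved apart. Bnip3 (ENSMUSG00000078566, chr7:138890836-138909519), which tethers autophagosomes to mitochondria and is a known HIF target, had 104, 94.1 and 111 CPM in GFP and 55.2, 51.5 and 57.9 CPM in CRE. Its CRE libraries were all lower (log2 fold change -0.91 ± 0.07, adjusted p = 3.7e-06, edgeR). Bnip3l, its close relative also called NIX, was higher by a small step of 0.17 (adjusted p = 0.0066). The share of Bnip3l in their summed FPKM was 41.4% ± 2.57 in GFP and 59.7% ± 1.13 in CRE (SD, n = 3).

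Of 7 other genes of the hypoxia response, 5 were tested, of which 4 fell and none rose. Adm, which codes for the vasodilator peptide adrenomedullin, had 82.1, 79.1 and 82.2 CPM in GFP and 26.9, 24.5 and 31.8 CPM in CRE. Its mean in CRE reached only 34.2% of that in GFP (log2 fold change -1.55 ± 0.08, adjusted p = 5.1e-07, edgeR). The sums of the fibroblast, endothelial, smooth muscle and macrophage markers fell as well, and a link of Adm to any of them was not tested. Ndrg1, a stress-responsive gene induced by low oxygen, had 85.6, 66.2 and 80.4 CPM in GFP and 36.3, 31.4 and 32.3 CPM in CRE, all lower in CRE (log2 fold change -1.21 ± 0.09, adjusted p = 4.7e-06, edgeR). Kdm3a, a histone H3K9 demethylase, fell by 0.21 (adjusted p = 0.0049) and Higd1a, which codes for a mitochondrial inner membrane protein, by 0.36 (adjusted p = 0.032). Both calls were lost with library size alone and on the FPKM scale, and that of Higd1a also without GFP replicate 3, CRE replicate 2 or CRE replicate 3. Mxi1, an antagonist of MYC, did not pass the test (-0.08, adjusted p = 0.31), with a sign that turned with library size alone (0.08). Ankrd37, with 2 to 7 counts, and Car9, the carbonic anhydrase often used as a hypoxia marker, with 0 to 7 counts, were not tested, and no change was detectable at this depth.

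In glycogen synthesis, Gys1, the glycogen synthase of muscle and most other tissues, had 97.5, 96.7 and 93.8 CPM in GFP and 47.5, 50.8 and 52.6 CPM in CRE. The libraries did not overlap (log2 fold change -0.93 ± 0.05, adjusted p = 5.7e-07, edgeR). Gbe1, the branching enzyme, was higher by 0.15 (adjusted p = 0.045). Its call was among the least stable, lost with DESeq2, without a filter, and without any one library other than CRE replicate 2.

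Ratios of related genes within a library do not depend on how libraries are scaled to each other. Of 13 pairs compared on FPKM, 10 did not overlap between groups. With 3 libraries against 3 the two-sided exact permutation test cannot go below p = 0.1, which each of these 10 reached (adjusted p = 0.13 over the 13 pairs), so none passed a threshold of 0.05. The largest differences of the log2 ratio (CRE minus GFP) were 2.26 for Pdk4 to Pdk1, 1.87 for Ldhb to Ldha, 1.29 for Pfkp to Pfkl and 1.07 for Bnip3l to Bnip3. Downward, they were -1.21 for Aldoc to Aldoa, -0.84 for Egln3 to Egln1, -0.49 for Slc2a3 to Slc2a1 and -0.44 for Hk2 to Hk1. The ratios of Epas1 to Hif1a (0.0879 ± 0.00418 in GFP and 0.0902 ± 0.00258 in CRE, SD, n = 3), Egln2 to Egln1 and Eno2 to Eno1 overlapped between groups.

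**Figure D4:**
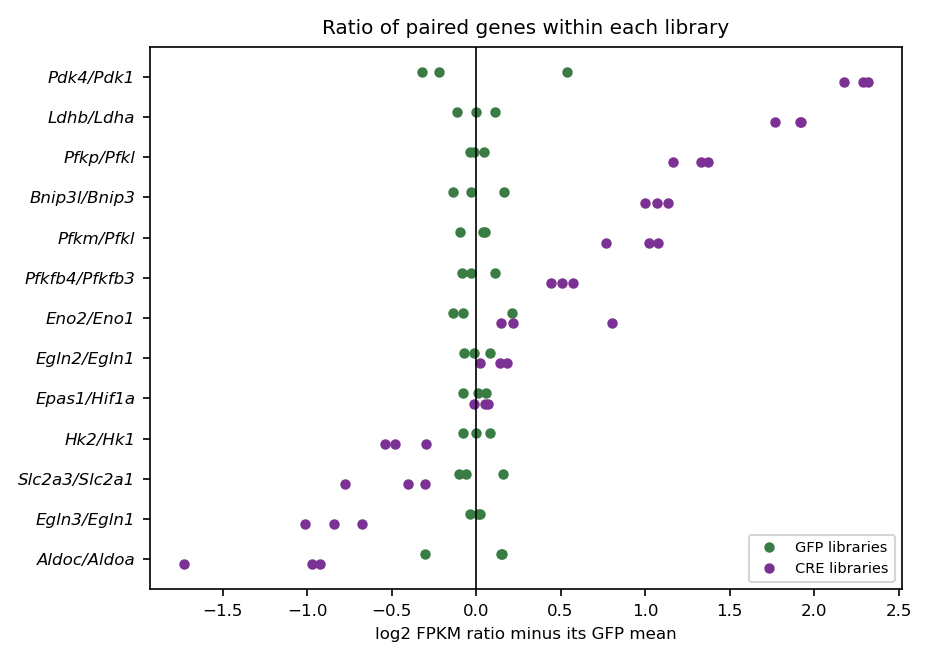
Log2 ratio of the FPKM of paired genes in each library, with the mean of the GFP libraries subtracted, sorted by the difference between groups. Libraries of the groups do not overlap for 10 of 13 pairs, from Pdk4/Pdk1 (2.26) to Aldoc/Aldoa (-1.21), while Eno2/Eno1, Egln2/Egln1 and Epas1/Hif1a overlap.

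Genes outside the 41 were taken from lists of the same pathways, also chosen with earlier results of these data known. Of 38 listed genes of oxygen sensing and the HIF response, 37 were found and 35 tested, of which 21 fell and 6 rose (median log2 fold change -0.26), with 10 lower on library size alone or on the FPKM scale. In either direction 27 of 35 were called, beside 51.2% of all tested genes (25.7% lower and 25.5% higher). Slc16a3, the lactate exporter MCT4 and the transporter that carries the product of Ldha out of the cell, had 134, 122 and 129.8 CPM in GFP and 43.7, 43.97 and 42.7 CPM in CRE. It was lower in every CRE library by a wide margin (log2 fold change -1.56 ± 0.05, adjusted p = 4.7e-08, edgeR). Cxcl12, a chemokine, fell by 1.36, and Stc1, the hormone stanniocalcin 1, by 1.53. Nos2, the inducible nitric oxide synthase, fell by 1.13 (adjusted p = 0.0045) although its libraries overlapped, with 23.7 CPM in the lowest GFP and in the highest CRE library. Rragd, a RAG GTPase of lysosomal signalling, rose by 1.07.

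In the neighbouring pathways the calls in either direction were 9 of 18 genes of other glycolysis, 5 of 11 of pyruvate entry, 6 of 10 of the pentose phosphate pathway, 10 of 19 of glycogen and 2 of 5 of gluconeogenesis, beside the 51.2% called among all tested genes, so these counts set none of the lists apart. Of 18 tested of 29 other isoforms and regulators of glycolysis, 5 rose and 4 fell (median -0.04). Galk1, galactokinase, fell by 0.89 and Slc2a8 (GLUT8) rose by 0.53. Of 11 genes of pyruvate entry and the pyruvate dehydrogenase complex, 4 rose and 1 fell (median 0.02). Both called genes of at least 0.5 in size were phosphatases that reactivate the complex: Pdp1 with 8.52, 7.61 and 8.88 CPM in GFP and 15.4, 15.7 and 14.9 CPM in CRE, higher in all CRE libraries (log2 fold change 0.88 ± 0.09, adjusted p = 3.8e-05, edgeR), and Pdp2, which fell by 0.59 (adjusted p = 0.0012).

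Of 10 genes of the pentose phosphate pathway 4 fell and 2 rose (median -0.13), and Tkt, transketolase, fell by 0.58 (adjusted p = 1.2e-05). Of 19 tested of 21 other glycogen genes, 6 fell and 4 rose (median -0.01). The rising ones of at least 0.5 were Nhlrc1 (0.92), which codes for malin, Stbd1 (0.73), which links glycogen to membranes, and Ppp1r3d (0.56), a targeting subunit of protein phosphatase 1. Gaa, the lysosomal glucosidase, fell by 0.73 and Ppp1r3b, another targeting subunit, by 0.51. Of 5 tested of 7 gluconeogenic genes 2 fell and none rose (median -0.37), of which Pck2, the mitochondrial phosphoenolpyruvate carboxykinase, had 158, 128 and 144 CPM in GFP and 56.3, 50.8 and 56.5 CPM in CRE. It was lower in all CRE libraries (log2 fold change -1.39 ± 0.08, adjusted p = 5.8e-07, edgeR).

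Some counts are uncertain in identity. For 13 of the 41 genes, another annotated gene shared at least 200 bases at 95% identity or more, with 90 such genes for Gapdh (3 of them protein-coding), 5 for Bnip3, 4 each for Ldha and Pgk1, and 3 for Eno1. How reads shared with these copies were counted is not stated. Hif1a, Hk1, Pfkm, Pfkp, Tpi1, Bnip3, Ndrg1 and Gys1 are among the genes with an exon overlapped by a gene on the opposite strand, and the strand setting of the counting is not given in the sources used here.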

How the data were processed

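RNA-seq was performed on 6 libraries. Sample titles gave the group and replicate number. The authors used Trimmomatic for trimming, HISAT2 for mapping to GRCm38 and HTSeq-count for counting, with no version or strand setting stated. RNA and library kits differ between the labels and the methods. Raw counts and Cufflinks FPKM values, both deposited by the authors for each library, were used here. The mean FPKM, log2 fold change, p-value and FDR columns that the authors deposited come from their own comparison and were not used.

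Counts were analysed with edgeR 4.0.16 in R 4.3.3 (filterByExpr, minimum count 10 and total 15; TMM; two-sided quasi-likelihood test; Benjamini-Hochberg adjustment over all 12862 genes tested), with a threshold of 0.05. TMM factors were 0.944 to 0.947 in GFP and 1.05 to 1.06 in CRE. The SE was derived from the log2 fold change and the F statistic. The test was run on simulated data, where the share of false calls was above the nominal threshold. FPKM was used for ratios and levels between genes. Coordinates came from GENCODE M21 and promoters from RefSeq. Alternatives were RLE, upper-quartile and no scaling factors, other filters, DESeq2 1.42.0, limma 3.58.1 on voom values or log2(FPKM + 1), a replicate block, and each library left out.

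The members and lists were chosen with earlier results of these data known. Values per library were given for members with an adjusted p under 0.05 and a change of at least 0.5, and for Hif1a, Epas1, Arnt, Slc2a1, Hk1, Hk2, Pfkfb3, Gapdh, Pkm and Ldha, and other lists were named by up to 6 such genes, of which 1 is not reported here. No 2 libraries of a group agreed within sampling noise.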

Additional observations from a re-analysis of the deposited data

How the results depend on the processing

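Of the 33 calls, 27 held under all 15 alternative fits (5 higher and 22 lower). With a change of at least 0.5 required as well, 2 genes were higher and 16 lower. Library size alone and limma on log2(FPKM + 1) moved the median of all genes to 0.17 and 0.14, and each gave 8 genes higher and 22 lower, with Egln1, Pfkfb3, Kdm3a and Higd1a no longer called and Hk1 called higher. On these scales Egln2 turned to 0.048 and 0.044, Slc2a1 to 0.042 and 0.038, Pfkm to 0.074 and 0.136, and Mxi1 to 0.079 and 0.078, none of which passed the test. DESeq2 lost Vhl and Gbe1. With each library left out in turn, between 5 and 7 genes were higher and between 25 and 26 lower, with Vhl, Higd1a and Gbe1 among the calls lost. A replicate block gave 7 higher and 26 lower and kept all 33 calls, and same-numbered libraries did not deviate together (r of 0.0285, 0.207 and -0.0387), so the numbers were not taken as pairs. For all 13 ratios, the difference between groups taken from counts lay within the larger SD of a group from that taken on FPKM. Leaving 1 library of 3 out cannot move a group mean by as much as its SD, so that check could not fail for the ratios. Tet3 kept its call under all 15 alternatives. For the pathway lists, library size alone gave 10 lower genes of the HIF response, 1 lower of other glycolysis, 2 lower of the pentose phosphate pathway, and 7 higher and 3 lower of glycogen. On log2(FPKM + 1) the lower genes of these lists were 10, 2, 2 and 3, and DESeq2 gave 2 lower of other glycolysis. With each library left out, other glycolysis had between 3 (without GFP replicate 3) and 5 higher, and between 2 (without CRE replicate 1 or 3 or GFP replicate 2 or 3) and 4 lower. The pentose phosphate pathway had between 1 (without CRE replicate 2 or 3 or GFP replicate 1 or 3) and 2 higher, and between 2 (without GFP replicate 2 or any CRE library) and 5 lower. Gluconeogenesis had between 0 and 1 higher (1 without GFP replicate 2). The cause of these shifts was not tested. Ankrd37 and Car9 could not be assessed at this depth.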
